A study of Mus musculus with 6 samples.

Results

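The proteasome subunit genes of the mouse were taken as the protein-coding RefSeq genes on GRCm38 whose symbol begins with Psma, Psmb, Psmc, Psmd or Psme followed by a digit. This choice by name gave 46 of the 21000 protein-coding genes that have a curated transcription start site (TSS). By the role of the product, 19 of them encode subunits of the 20S core, 20 encode subunits or assembly chaperones of the 19S cap, and 5 encode activators. The other 2, Psmc3ip and Psme3ip1, match the symbol but encode no subunit: the first takes part in meiotic recombination and the second binds an activator.

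The study asked how ZBTB transcription factors, ZBTB21 among them, take part in the organization of chromatin by cohesin. ATAC-seq, in which the Tn5 transposase inserts adapters into accessible DNA, was performed in V6.5 cells, a mouse embryonic stem cell (mESC) line, without treatment (2 replicates), and in ZBTB21-degron mESCs at 0 h and 6 h (2 replicates each). Here 1 list of 41014 peaks of the untreated V6.5 cells was analysed, and the degron samples were not analysed here. The cells were grown on irradiated embryonic fibroblasts with LIF, so accessible DNA of feeder cells may be among the reads. The paper's methods for mESC culture differ, as they list CHIR99021 and PD0325901 beside LIF and mention no fibroblasts. The treatment text in the labels speaks of 24 h of doxycycline for degron cells and is attached to the untreated samples too, although their treatment is given as untreated.

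The proteasome degrades proteins that carry ubiquitin chains. Its 20S core is a barrel of alpha rings outside and beta rings inside, and the beta subunits PSMB5, PSMB6 and PSMB7 carry the protease sites. The 19S cap binds ubiquitin chains, removes them, and unfolds and feeds substrates into the core with a ring of ATPases, while activators of the PSME group open the core without ubiquitin. Most subunits are made in every cell, interferon induces replacement beta subunits (the immunoproteasome), and human embryonic stem cells are known for high proteasome activity.

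The list gives each peak a whole-number score, from 540 to 953 with a median of 696, in which a higher number stands for a peak that the authors' processing ranked higher. The list has no values per replicate and no read depth, so no error between replicates could be given for any value below, and no test between samples exists. A gene without a listed peak is one near which no region entered the list, which is not the same as closed chromatin. Of 6 pluripotency genes, Nanog, Pou5f1 and Zfp42 had a peak within 5 kb of a TSS and Sox2, Esrrb and Klf4 had none. Of 6 fibroblast genes Thy1 alone had one, and the part of feeder cells in the results was not tested.

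Promoter sequences show what lies at the TSSs on which the results turn. They run from 250 bases before the TSS to 50 bases from it onward and come from RefSeq, build GRCm38.p6. Of the 46 genes, 39 matched the table, with 43 sequences in all. The others were Psma8, Psmb1, Psmb2, Psmb7, Psmc3, Psmd3 and Psmd7. Each sequence is written 5′ to 3′ along the gene, and capitals mark 1 motif, found on either strand.

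The first sequences belong to genes with a peak over the TSS. In them capitals mark CCGGAA, the core of sites for ETS family factors, or its complement TTCCGG. Psma5 and Psmc5 are shown because a ZBTB21 peak covered the TSS as well, Psmd4 because it had the highest score of the 19S genes and Psmd13 because it had the lowest score of all the genes with a peak.
Psma5, chr3:108256676-108256975, plus strand: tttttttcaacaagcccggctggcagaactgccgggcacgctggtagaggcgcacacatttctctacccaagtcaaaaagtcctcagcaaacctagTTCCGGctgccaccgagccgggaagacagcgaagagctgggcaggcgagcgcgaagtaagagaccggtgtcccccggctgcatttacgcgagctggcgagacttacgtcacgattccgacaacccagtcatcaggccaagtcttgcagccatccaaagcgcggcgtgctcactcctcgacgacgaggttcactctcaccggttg
Psmc5, chr11:106255935-106256234, plus strand: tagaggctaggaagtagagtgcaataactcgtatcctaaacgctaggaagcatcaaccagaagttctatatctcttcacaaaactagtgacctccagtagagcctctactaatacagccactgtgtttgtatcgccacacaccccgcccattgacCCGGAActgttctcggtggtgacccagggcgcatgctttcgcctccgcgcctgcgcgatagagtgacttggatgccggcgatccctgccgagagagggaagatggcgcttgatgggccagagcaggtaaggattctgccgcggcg
Psmd4, chr3:95042565-95042864, minus strand: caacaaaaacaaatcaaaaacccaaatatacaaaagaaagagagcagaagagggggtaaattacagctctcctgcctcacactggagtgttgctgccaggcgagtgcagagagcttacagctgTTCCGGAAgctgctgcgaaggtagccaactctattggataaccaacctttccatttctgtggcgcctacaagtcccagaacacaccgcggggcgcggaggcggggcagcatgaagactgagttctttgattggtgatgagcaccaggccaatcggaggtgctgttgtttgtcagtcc
Psmd13, chr7:140882144-140882443, plus strand: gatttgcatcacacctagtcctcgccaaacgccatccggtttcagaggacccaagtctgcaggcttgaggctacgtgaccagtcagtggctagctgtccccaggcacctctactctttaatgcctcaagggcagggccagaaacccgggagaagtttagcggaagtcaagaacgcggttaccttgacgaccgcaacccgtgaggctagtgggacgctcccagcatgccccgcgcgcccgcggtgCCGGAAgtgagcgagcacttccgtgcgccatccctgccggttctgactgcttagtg

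Psma2 is shown with the site of nuclear respiratory factor 1, GCATGCGC, in capitals, because its promoter held 4 matches over both strands between positions -190 and -118, a pair of which overlap. Positions are counted from the TSS at 0. Psmb5 is shown for the antioxidant response element core, TGACNNNGC, at positions -47 to -39. This core is bound by NFE2L1, the factor known to raise proteasome gene transcription when proteasomes are inhibited, and it begins with the same letters as the cAMP response element TGACGTCA.
Psma2, chr13:14612992-14613291, plus strand: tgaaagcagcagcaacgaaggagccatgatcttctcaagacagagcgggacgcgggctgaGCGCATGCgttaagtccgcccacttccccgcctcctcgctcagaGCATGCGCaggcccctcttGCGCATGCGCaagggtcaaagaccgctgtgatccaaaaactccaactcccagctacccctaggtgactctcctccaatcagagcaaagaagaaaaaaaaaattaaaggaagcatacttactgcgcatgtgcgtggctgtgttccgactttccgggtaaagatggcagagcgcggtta
Psmb5, chr14:54617946-54618245, minus strand: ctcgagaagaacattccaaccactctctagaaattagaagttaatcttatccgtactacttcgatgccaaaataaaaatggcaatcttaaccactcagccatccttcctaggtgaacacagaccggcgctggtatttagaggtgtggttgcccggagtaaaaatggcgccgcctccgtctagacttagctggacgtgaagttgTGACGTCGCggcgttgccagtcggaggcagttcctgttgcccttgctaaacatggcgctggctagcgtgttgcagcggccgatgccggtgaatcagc

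The last promoters belong to genes with no peak within 1 kb. Psma7 and Psmd5 are shown with the GC box, GGGCGG or CCGCCC, in capitals, Psma7 as the promoter of highest GC content of the 43 (77.0%) and Psmd5 because a ZBTB21 peak covered its TSS. Psmb8, a catalytic subunit of the immunoproteasome, is shown with the gamma-activated element TTCNNNGAA, known from interferon-induced genes, in capitals.
Psma7, chr2:180042415-180042714, minus strand: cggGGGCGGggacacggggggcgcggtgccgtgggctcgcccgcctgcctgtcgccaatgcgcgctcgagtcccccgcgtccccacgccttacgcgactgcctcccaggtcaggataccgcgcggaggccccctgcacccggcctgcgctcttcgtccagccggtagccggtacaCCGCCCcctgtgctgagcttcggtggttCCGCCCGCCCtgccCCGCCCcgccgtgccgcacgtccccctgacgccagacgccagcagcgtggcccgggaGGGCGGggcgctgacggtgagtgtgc
Psmd5, chr2:34870913-34871212, minus strand: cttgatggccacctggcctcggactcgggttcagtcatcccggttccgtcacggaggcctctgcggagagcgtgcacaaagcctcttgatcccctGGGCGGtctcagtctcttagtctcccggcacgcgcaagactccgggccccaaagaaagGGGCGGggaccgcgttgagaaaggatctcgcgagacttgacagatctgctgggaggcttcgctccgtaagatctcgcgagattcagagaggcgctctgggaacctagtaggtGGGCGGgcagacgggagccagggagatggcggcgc
Psmb8, chr17:34197945-34198244, plus strand: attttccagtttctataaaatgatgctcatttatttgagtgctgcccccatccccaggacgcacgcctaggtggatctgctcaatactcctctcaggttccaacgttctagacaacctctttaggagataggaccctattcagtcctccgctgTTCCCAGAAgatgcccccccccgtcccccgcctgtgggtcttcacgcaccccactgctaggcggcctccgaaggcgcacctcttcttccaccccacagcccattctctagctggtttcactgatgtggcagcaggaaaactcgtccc

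A peak lay within 1 kb of a TSS of 25 of the 46 genes (54.3%), against 28.5% of all protein-coding genes. Within 5 kb it was 28 genes (60.9%), against 39.3% of all. In every one of the 25 genes the peak covered a TSS itself, and no gene had more than 1 peak within 1 kb. Among all protein-coding genes with a peak within 1 kb, 88.3% had one over a TSS. The step from 1 kb to 5 kb added only 3 proteasome genes, Psmb7 at 2119 bp, Psmb8 at 4975 bp and Psmb10 at 1005 bp. Psmb10 lay just outside the limit of 1 kb, and around the limit of 5 kb Psmb8 lay just inside and Psme2b, at 5113 bp, just outside.

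The peaks over the proteasome gene TSSs were close to centred. Their centres lay at most 248 bp from the TSS, with a median distance of 86 bp, and 14 of the 25 lay upstream. The centre was within 250 bp in 25 of 25 proteasome genes and in 75.1% of all genes with a peak within 1 kb. The peaks were 546 to 1281 bp wide with a median of 820 bp, beside a median of 773 bp at all genes with a promoter peak and of 547 bp in the whole list. The plot of peak extents shows that each bar spans the start site.

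**Figure D1:**
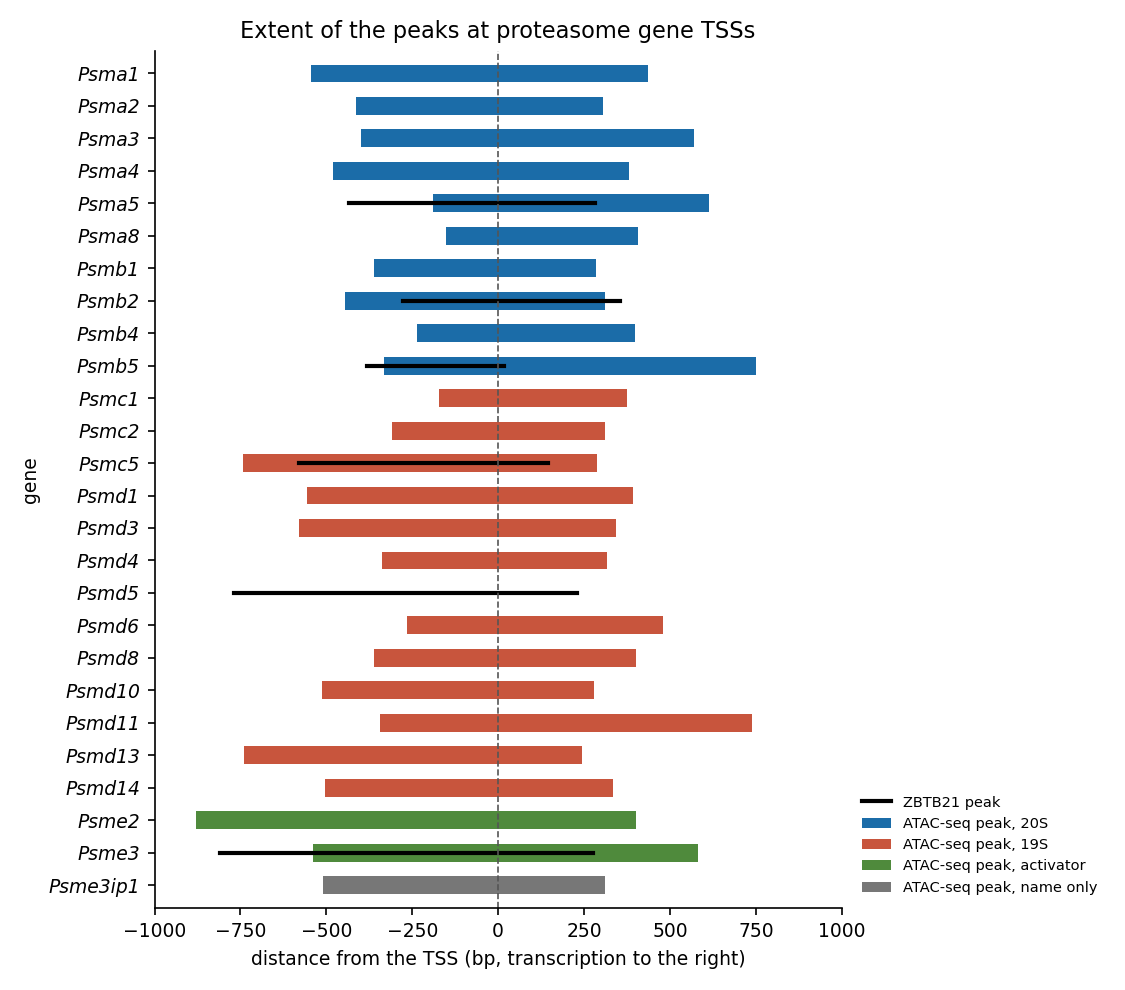
Extent of each peak within 1 kb of a proteasome gene TSS, in bp from the TSS with transcription to the right. Bars are ATAC-seq peaks coloured by class of gene and black lines are ZBTB21 peaks; all 25 bars cross the TSS at 0, and Psmd5 has a ZBTB21 line without a bar.

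Scores at the 25 genes ran from 542 at Psmd13 to 937 at Psme3ip1, with a median of 792 and quartiles of 697 and 874. For all protein-coding genes with a promoter peak the median was 754 and the quartiles 656 and 844. The wide spread among the proteasome genes (SD 123 over 25 genes) thus covered nearly the whole scale. A score of at least 900 was found at 6 of the 25 (24.0%) and at 9.81% of all genes with a promoter peak. These 6 include Psme3ip1, which encodes no subunit, and the highest score without it was 923, at Psmd4. A score above the median of the list was found at 19 (76.0%) and at 65.4%.

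**Figure D2:**
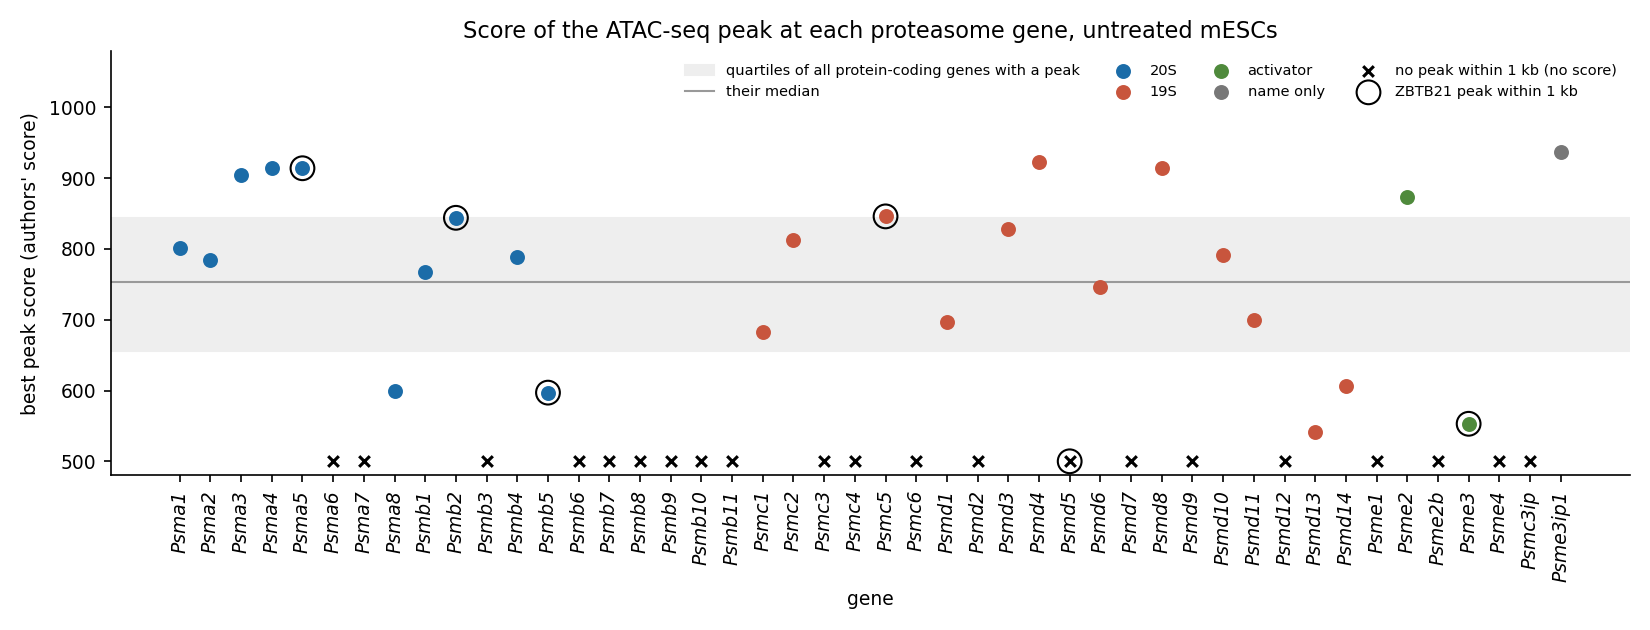
Score of the ATAC-seq peak within 1 kb of each of the 46 genes, in the authors' units. Dots are coloured by class, crosses mark genes with no such peak, circles mark a ZBTB21 peak within 1 kb, and the grey band and line are the quartiles and median of all protein-coding genes with a promoter peak; the alpha genes Psma3, Psma4 and Psma5 sit above 900 and the immunoproteasome genes Psmb8, Psmb9 and Psmb10 are all crosses.

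The alpha subunits form the outer rings of the core and its gate. Of the 7 alpha genes used in every cell, 5 had a promoter peak (71.4%). Psma4 scored 915, Psma5 914 and Psma3 905, which put all of these above the upper quartile of all genes. Psma1 scored 802 and Psma2 785, also above the general median. The peak of Psma4 lay at chr9:54950377-54951240 and also covered the start of AY074887, a gene on the other strand that begins 95 bp downstream, so the signal of the pair cannot be told apart.

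Psma6 and Psma7 were the alpha genes without a promoter peak. The nearest peak to Psma6 was 6142 bp upstream, centred in an intron of Prorp, with a score of 698. The nearest peak to Psma7 was 30644 bp downstream of the TSS, with a score of 634. Psma7 shares its start with Ss18l1, which begins 19 bp away on the other strand, and this pair of starts, GC-rich as the sequence above shows, had no listed peak. Psma8, the form that takes the place of PSMA7 in the testis, had a promoter peak with a score of 600.

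Of the 7 beta genes used in every cell, 4 had a promoter peak (57.1%). Psmb2 scored 844, Psmb4 789 and Psmb1 768, all above the median of all genes with a promoter peak. Psmb5, which encodes the chymotrypsin-like protease subunit, had the lowest score of these core genes, 597, in a peak at chr14:54617245-54618328 that reached 750 bp into the gene. The other protease genes had no promoter peak. For Psmb6, the caspase-like subunit, the nearest peak was 5986 bp downstream of the TSS, and for Psmb7, the trypsin-like subunit, it was 2119 bp upstream with a score of 789. Psmb3 lay 31946 bp from its nearest peak, in an intron of Mllt6.

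The immunoproteasome replaces the protease subunits after interferon, and none of its 3 genes had a peak within 1 kb. Psmb8 and Psmb9 lie on both sides of Tap1, a peptide transporter gene of antigen presentation, and had the same nearest peak, chr17:34192751-34193220 in an intron of Tap1, with a score of 790. It was 4975 bp from Psmb8 and 5421 bp from Psmb9. The start of Psmb9, which is 226 bp from that of Tap1 on the other strand, had no peak. For Psmb10 a peak of score 880 lay 1005 bp downstream of the TSS, with its centre in an intron of Psmb10 itself. Psmb11, the thymus form, had the promoter peak of its neighbour Psmb5 as its nearest, 6982 bp away. Counted together, 9 of the 14 core genes used in every cell (64.3%) and 1 of the 5 induced or tissue forms had a promoter peak, and the difference was not tested.

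The 19S cap had a promoter peak at 12 of 20 genes (60.0%), and the same 12 at 5 kb. The 6 ATPases form the ring that unfolds substrates, and 3 of their genes had a peak. Psmc5 scored 846, Psmc2 812 and Psmc1 683. The peak of Psmc5, chr11:106255442-106256472, also spanned the start of Ftsj3, 101 bp away on the other strand. Psmc2 has 2 curated TSSs and its peak lay over the downstream one, so that Psmc2 has no promoter peak when only the most upstream TSS is used. Of the ATPase genes without one, Psmc6 lay 10702 bp from a peak at Ero1a, Psmc3 22489 bp from a peak outside genes and Psmc4 35652 bp from a peak at Zfp850, the largest distance of the 46 genes.

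The non-ATPase subunits hold ubiquitin receptors, the scaffold and the lid. Of their 11 genes, 8 had a promoter peak (72.7%). Psmd4, a receptor for ubiquitin chains, scored 923, and its peak at chr3:95042296-95042953 was centred 10 bp upstream of the TSS. Psmd8 scored 915 and Psmd3 828. Both encode subunits of the lid, as do Psmd6 with 746, Psmd11 with 700 and Psmd14 with 606, the last being the deubiquitinase of the lid. Psmd1, one of the large scaffold subunits, scored 697. Psmd13, also of the lid, scored 542, close to the lowest score in the list. Its peak spanned the start of Sirt3, 85 bp away on the other strand.

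Psmd2, Psmd7 and Psmd12 were the non-ATPase genes without a promoter peak. The nearest was 9024 bp upstream of Psmd2 in an intron of Ece2, 6411 bp upstream of Psmd7, and 24106 bp upstream of Psmd12 in an intron of Pitpnc1. PSMD1 and PSMD2 are the large scaffold subunits of the cap, and of their genes only Psmd1 had a peak. Of the 3 assembly chaperones of the ATPase ring, only Psmd10, also known as gankyrin, had a promoter peak, with a score of 792. It lies on the X chromosome and starts 196 bp from Atg4a. Psmd9 had a peak of score 696 in its own intron, 7308 bp downstream of the TSS, and Psmd5 had none nearer than 7809 bp. Over the 31 core and cap subunits used in every cell, 20 had a promoter peak (64.5%).

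Activators bind the ends of the core in place of the cap, and 2 of their 5 genes had a promoter peak. Psme2, an interferon-inducible subunit of the PA28 ring, scored 874 in the widest peak of the 25 genes, 1281 bp, which also covered the start of Rnf31, a ubiquitin ligase gene 641 bp away. Psme3, which encodes the nuclear form of this activator, scored 553. Psme1, the partner of PSME2 in the ring, had no promoter peak, and its nearest, of score 898, lay 6337 bp downstream at Emc9. For Psme4 the nearest peak was in its own intron 13167 bp downstream, with a score of 552, and for Psme2b it was 5113 bp upstream with a score of 735. Of the 2 genes that match by name only, Psme3ip1 had the highest score of the 46, 937, and Psmc3ip lay 12530 bp from its nearest peak.

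**Figure D3:**
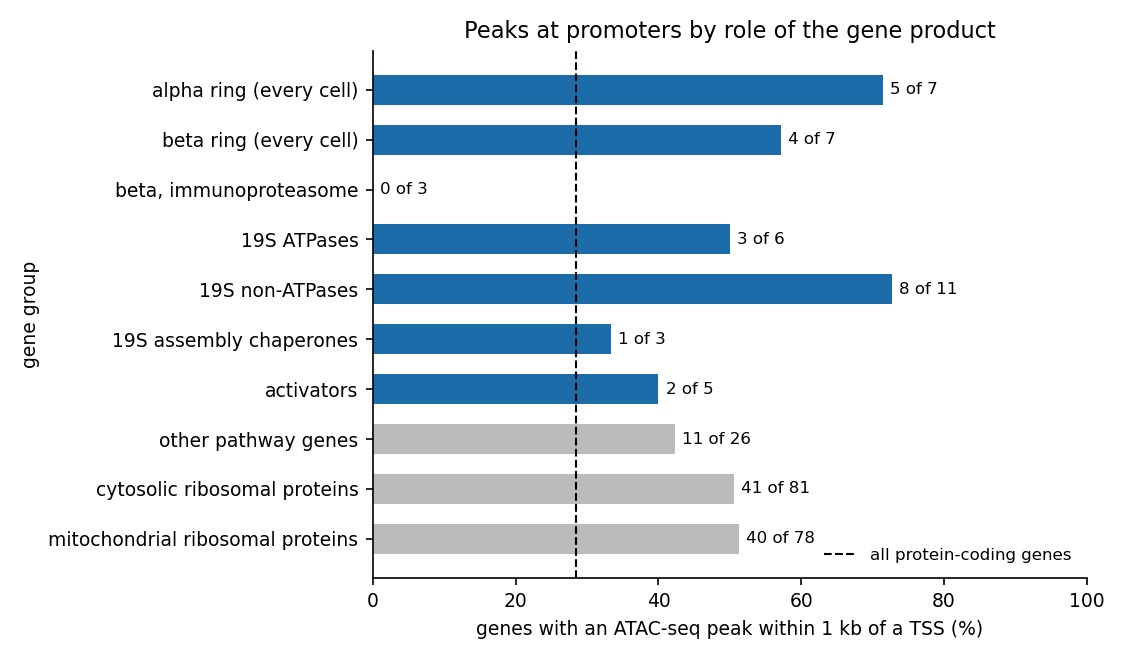
Percent of genes whose TSS had an ATAC-seq peak no farther than 1 kb away, for proteasome genes by role (blue) and for other gene groups (grey), with the number of genes at each bar. The dashed line is the share of all protein-coding genes, 28.5%; the non-ATPase genes (8 of 11) and the alpha genes (5 of 7) reach farthest and the immunoproteasome genes are at 0.

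Other large complexes made in every cell had promoter peaks at like shares. Of the cytosolic ribosomal protein genes, 41 of 81 (50.6%) had one, and of the mitochondrial ribosomal protein genes 40 of 78 (51.3%). Of the chaperonin genes 4 of 9 (44.4%) had one. The 54.3% of the proteasome genes was thus above the share of all genes and near those of the ribosomal protein genes, and none of these differences was tested. Within 5 kb the cytosolic ribosomal protein genes reached 75.3% and the proteasome genes 60.9%.

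With larger distances the shares rose at different places. All but 8 of the proteasome genes had a peak within 10 kb (38 of 46, 82.6%), beside 51.6% of all genes. The share within 10 kb was 90.1% for cytosolic ribosomal protein genes, 77.8% for chaperonin genes and 69.2% for mitochondrial ribosomal protein genes. The 21 genes without a promoter peak had their nearest peak at a median of 7308 bp and at most 35652 bp. The curve of the 19S genes stayed flat from 0 to 5 kb, while that of the 20S genes rose from 10 to 13 genes.

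**Figure D4:**
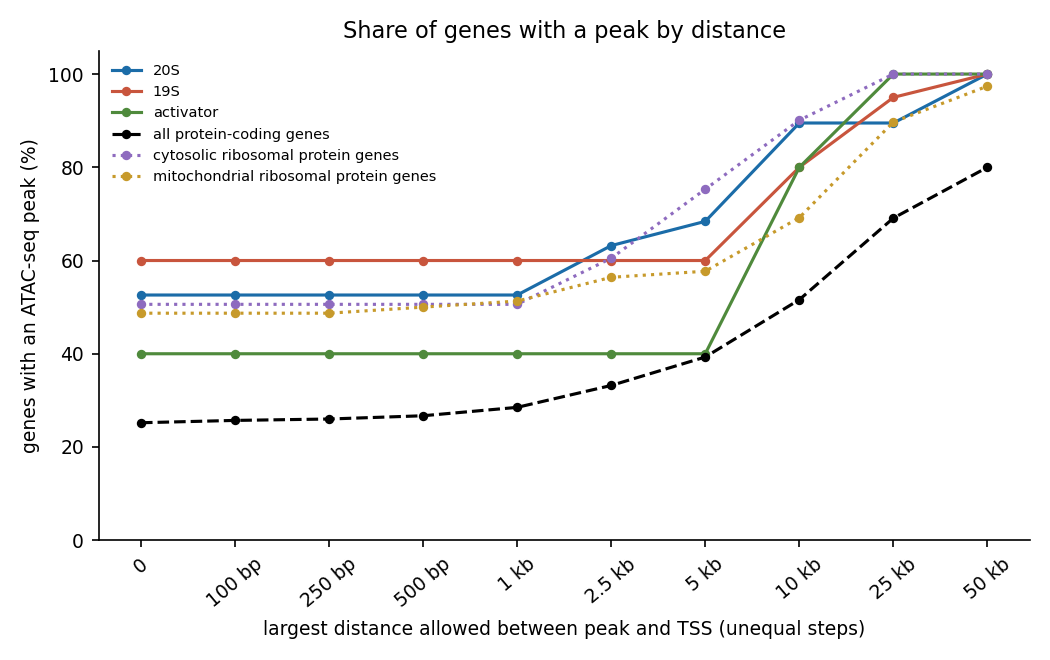
Percent of genes with an ATAC-seq peak against the largest distance allowed between peak and TSS, in unequal steps. Solid lines are the classes of proteasome genes, dotted lines ribosomal protein genes and the dashed line all protein-coding genes; the 19S line is flat at 60.0% up to 5 kb, and the dashed line lies below the others at each distance.

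ZBTB21 is a zinc finger factor that the study examined with cohesin. Its 1827 peaks in mESCs came from ChIP-seq through a GFP tag on the endogenous protein in degron cells, a line other than the untreated V6.5 cells of the ATAC-seq. A ZBTB21 peak lay within 1 kb of a TSS of 6 of the 46 genes (13.0%), against 6.13% of all protein-coding genes. The share was 19.8% of the cytosolic ribosomal protein genes (16 of 81), 22.2% of the chaperonin genes (2 of 9) and 10.3% of the mitochondrial ribosomal protein genes (8 of 78). It was 10.9% of all genes with a CpG-rich promoter (GC content above 50% and a ratio of observed to expected CpG above 0.6) and 19.2% of the 26 proteasome genes with one. The 13.0% of all 46 proteasome genes thus lay within the range of the ribosomal protein and chaperonin groups. Among genes with a CpG-rich promoter, the 19.2% lay above the 10.9% of all and near the 18.8% of the cytosolic ribosomal protein genes. No difference was tested. The 6 genes were Psma5, Psmb2 and Psmb5 of the core, Psmc5 and Psmd5 of the cap, and the activator gene Psme3, and in each the peak covered the TSS. The same 6 genes were found at 500 bp and at 2.5 kb.

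Accessible peaks and ZBTB21 peaks overlapped at 5 of these genes. At Psmb2 the ZBTB21 peak reached from -277 to 355 bp around the TSS and the ATAC-seq peak from -445 to 311 bp. At Psma5 the ZBTB21 peak, from -435 to 283 bp, began farther upstream than the ATAC-seq peak, from -190 to 614 bp. At Psmb5 the ZBTB21 peak ended 18 bp after the TSS and the ATAC-seq peak 750 bp after it, so that their overlap was on the upstream side. At Psmd5 the ZBTB21 peak, from -768 to 230 bp, had no ATAC-seq peak within 1 kb. Among all genes with a ZBTB21 peak at the TSS, 50.7% had an ATAC-seq peak there. The scores of the 5 genes were 553 at Psme3, 597 at Psmb5, 844 at Psmb2, 846 at Psmc5 and 914 at Psma5, which spans nearly the range of all 25.

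Some of the proteasome genes start head to head with another gene. In 9 of the 46 (19.6%) another protein-coding gene started within 1 kb upstream on the other strand, against 8.86% of all protein-coding genes and 13.6% of the cytosolic ribosomal protein genes. Besides the pairs named above they were Psma2 with Mrpl32 at 205 bp, Psmc2 with Dnajc2 at 110 bp and Psme3ip1 with Rspry1 at 215 bp. The start next to the partner had a peak within 1 kb in 6 of these 9 genes (66.7%), against 42.0% of all genes with a partner. Psma7 with Ss18l1, Psmb9 with Tap1 and Psmc2 with Dnajc2 had none there. The peak of Psmc2 lay over its other start and 1163 bp from the start beside Dnajc2. A peak over such a pair is counted for both genes and cannot be assigned to one of them. Among the 37 proteasome genes with no such partner, 18 had a promoter peak (48.6%), against 27.0% of all genes with none. Of the cytosolic ribosomal protein genes with none, 37 of 70 had one (52.9%). With a partner, a promoter peak at any start was found at 77.8% of the proteasome genes. That share was 36.4% of the cytosolic ribosomal protein genes (4 of 11) and 44.0% of all genes. The differences were not tested.

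Promoters were also split by CpG content. Of the 26 proteasome genes with a CpG-rich promoter, 57.7% had a promoter peak, against 38.1% of all genes with one. Of the 13 without, 6 had a peak (46.2%), against 19.7%. The cytosolic ribosomal protein genes had a peak at 54.2% with a CpG-rich promoter and 53.8% without. The median GC content was 54.8% over the 24 sequences of genes with a peak, 62.0% over the 19 sequences of genes without, and 57.0% over all protein-coding promoters. Sequences were sorted by gene, so the starts of Psmc2 and Psme3ip1 that have no peak of their own count as with a peak. In CpG the order was the other way. The median ratio of observed to expected CpG was 0.779 with a peak and 0.697 without, beside 0.588 over all, and 66.7% and 57.9% of the sequences were CpG-rich, beside 46.3% of all.

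The ETS core CCGGAA was in 20 of the 43 proteasome promoter sequences (46.5%). It was in 19.1% of the sequences of all protein-coding genes and in 31.2% of those that are CpG-rich. It was in 14 of the 24 sequences of genes with a promoter peak and in 6 of the 19 of genes without. The 14 include the start of Psmc2 beside Dnajc2, which itself had no peak within 1 kb. In Psmd13 it ended 1 base before the TSS, at positions -6 to -1, and in Psmd4 it was found on both strands of TTCCGGAA at positions -127 to -120. A match describes the letters and does not show that a factor binds there.

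For the other motifs the order often depended on the promoters used for comparison, and 62.8% of the proteasome sequences were CpG-rich. The GC box was in 55.8% of the proteasome sequences, above the 47.6% of all promoters and below the 77.1% of CpG-rich ones. These were 24 sequences of 23 genes, since both sequences of Psme2 overlap and hold the same boxes. The TATA box TATAAA was in 9.3%, below the 12.4% of all and above the 4.5% of CpG-rich promoters. The site of nuclear respiratory factor 1 was in 4.65%, at Psma2 and Psmc5, beside 3.64% of all and 6.49% of CpG-rich promoters. The antioxidant response element core was in 14.0%, beside 13.1% and 15.2%, at Psmb5, Psmb6, Psmc6, Psmd9, Psmd12 and Psme4, of which only Psmb5 had a promoter peak.

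Some further motifs stood above both sets of promoters. The interferon-stimulated element GAAANNGAA was in 14.0% of the proteasome sequences, beside 7.95% of all and 5.26% of CpG-rich promoters. It was found at Psmb3, Psmb4, Psmc2, Psmd4, Psmd9 and Psme1, and not in the sequences of the immunoproteasome genes. The site of YY1, AAGATGGC, was in 6.98%, at Psma2, Psmb6 and Psmc5, beside 3.11% and 4.89%. The E-box CACGTG was in 11.6%, above the 8.03% of all and only just above the 11.5% of CpG-rich promoters. The CCAAT box was in 37.2%, beside 38.4% and 36.0%. The gamma-activated element, at Psmb8 and Psmd2, was in 4.65%, beside 7.77% and 5.44%. The cAMP response element was in 0 of the 43 sequences, beside 2.3% and 3.77%. These counts rest on few sequences, and no difference was tested.

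Genes whose products assemble, feed or regulate the proteasome were counted beside the subunits. Of 26 such genes, 11 had a promoter peak (42.3%) and 13 a peak within 5 kb. Nfe2l1, whose product raises proteasome gene transcription, had the highest score, 904, and Akirin2, needed for import of proteasomes into the nucleus, had 659. Of the 5 assembly genes of the core only Psmg3 had a promoter peak, with a score of 573. Among proteins bound to the proteasome, Sem1, a small subunit of the cap without the Psm symbol, had 803, the inhibitor gene Psmf1 796 and the deubiquitinase gene Usp14 604. Of the ubiquitin shuttles, Ubqln4 had 853 and Ubqln2 766. The ubiquitin gene Rps27a had 581 and Uba1, the gene of the ubiquitin-activating enzyme, 564, both below the lower quartile of all genes with a promoter peak.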

How the data were processed

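ATAC-seq was performed in untreated V6.5 mESCs and in ZBTB21-degron mESCs, and the 2 untreated samples, joined in 1 deposited list, entered the analysis. The authors deposited mm10 coordinates and a score for each peak. The submitters' processing notes name cutadapt 2.6, Bowtie2 2.3.5.1 and MACS2 2.1.1 and the builds mm10 and hg19. How the ATAC-seq peaks were called, and whether cut sites were shifted for Tn5, is not given in the sources used here. For ChIP-seq the methods give MACS2 at a q threshold of 0.05, filtering of replicates by IDR at 0.05 and a blacklist filter. The smallest score, 540, is what IDR software writes for 0.05, a reading from the values only. Depth is unknown, so no interval was computed.

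Distances were measured here from any base of a peak to the nearest TSS of curated RefSeq transcripts of protein-coding genes on assembled chromosomes of GRCm38, the assembly that mm10 names. A promoter peak lay within 1 kb. The score of a gene is that of its best peak within this distance. ZBTB21 peaks and loops were taken by coordinates from supplementary tables of the study. Every gene with a matching symbol could be named, with values for its promoter peak or else its nearest peak, and other genes were named as neighbours of a TSS or as pathway genes with a promoter peak. The marker genes are named outside this rule, and some pathway genes are not reported here. The members, lists and motifs were chosen with earlier results of these data known, and groups were described without tests. The counting was tested on simulated data, in which 0 of 314 distances came out wrong. Alternatives were the distance, the TSSs, the score, the centre of the peak, the members and the part of the loop. The software was Python 3.11.15 with the packages matplotlib 3.10.9, numpy 2.4.6 and pandas 2.3.3.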

Additional observations from a re-analysis of the deposited data

How the results depend on the processing

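Of 58 values recomputed under alternatives, 54 stayed within 1.5 times the reported count or, for the median score, within the spread of the genes. The number of proteasome genes with a promoter peak ranged from 19 to 27, that of the 20S genes from 8 to 12 and that of the 19S genes from 9 to 12. With only peaks that score above the median of the list, the activator genes fell to 1, and the share of all protein-coding genes was 18.7% within 1 kb and 25.5% within 5 kb. Psmc2 has a promoter peak only through its downstream TSS. With the anchors of the responsive loops alone, 1 gene remained in them instead of 8.

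No paired analysis was possible because the list joins both untreated replicates and holds no value for either. Fits without a replicate were not run. Classes of 5 genes or fewer change by large steps with a single gene.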

Other observations

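The study names 500 long chromatin loops ZBTB21-responsive and 500 less responsive, by peaks inside them and not by a measured change of the loops. The responsive loops were chosen to hold ZBTB21 peaks and cohesin peaks that fall after ZBTB21 loss. The less responsive loops were chosen to hold neither. Both were ranked by ZBTB21 signal and cohesin change at ATAC-seq peaks. Counted across both anchors and the span between them, responsive loops held a TSS of 8 of the 46 proteasome genes (17.4%), against 15.6% of all protein-coding genes. They were Psmb6, Psmb8 and Psmb9 of the core, and Psmc3, Psmc5, Psmd2, Psmd9 and Psmd13 of the cap. Psmc5 and Psmd13 had a promoter peak, and the other 6 had none. Psmd9 alone lay in an anchor. None of the 46 lay in a less responsive loop (0 genes), and 1205 of the 21000 protein-coding genes did. Those loops were chosen to lack ZBTB21 peaks, so the 6 proteasome genes with a ZBTB21 peak over the TSS could not lie in them. No conclusion is drawn from the 0. Psmb8 and Psmb9 are neighbours, and the differences were not tested.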
